A study of Mus musculus with 200 samples.

Results

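The dual-specificity MAP kinase phosphatases described here are 6 genes of the mouse brain, Dusp1, Dusp4, Dusp5, Dusp6, Dusp8 and Dusp14, out of 56941 genes in the deposited tables. They were chosen by symbol, with earlier results of these data known. MAP kinases are switched on when a MAP kinase kinase phosphorylates a threonine and a neighbouring tyrosine, and these phosphatases remove both phosphates and so switch the kinase off. Transcription of several of them is itself raised by MAP kinase signalling, which closes a negative feedback loop, and in neurons this makes them activity-responsive genes. The family divides by the place in the cell and by the preferred kinase. Dusp1, Dusp4 and Dusp5 are inducible nuclear enzymes, of which Dusp1 also acts on p38 and JNK while Dusp5 is selective for ERK. Dusp6 is cytoplasmic and selective for ERK, Dusp8 acts on JNK and p38, and Dusp14 is a small atypical member without the MAP kinase-binding domain of the others.

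RNA-seq was performed on one hemisphere from each of 200 mice, 67 of them after sham surgery and the others after closed head injury (CHI). CHI was a single impact on the intact skull under isoflurane, whereas sham mice received the anaesthesia and a scalp incision, so both groups carry the effects of anaesthesia and incision. Mice were 61 C57BL/6J, 55 labelled IL-1R1 gKO, 50 labelled IL-1R1 eRestore and 34 labelled IL-1R1 nRestore, of both sexes, aged 3.3 to 7.67 months, and were taken at 9, 24 or 72 h. The sources used here do not say how the 3 IL-1R1 strains were made or in which cells the receptor gene is active.

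At 9, 24 and 72 h the C57BL/6J groups held 15, 14 and 14 CHI mice with 6 sham mice each time. The IL-1R1 gKO groups held 13, 12 and 12 CHI mice, also with 6 sham mice each time. The IL-1R1 eRestore groups held 12, 9 and 12 CHI mice with 6, 5 and 6 sham mice, and the IL-1R1 nRestore groups held 6, 8 and 6 CHI mice with 4, 5 and 5 sham mice. All IL-1R1 nRestore mice at 72 h were male, whereas at 9 h the CHI and sham groups of that strain held 1 male each. The mice came from 8 experiments, none of which held both 9 h mice and later ones, so time point and experiment cannot be told apart. Surgery was done in the morning, so the clock time of collection also differed between time points.

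Total estimated counts per mouse ran from 14858000 to 57355700, and the lowest count of any of the 6 genes in any mouse was 54, for Dusp5. Il1r1, the interleukin-1 receptor gene that the labels name, had a median of 2.00 TPM (transcript abundance scaled for length and library size) in C57BL/6J and 3.94 TPM in IL-1R1 gKO mice, so its level was not lower in the strain labelled gKO and does not check that label. Neuron markers summed to between 4679.8 and 8092 TPM in every mouse at 9 h. Choroid plexus markers varied widely, and their sum exceeded 1000 TPM in 8 mice at 9 h, 4 CHI and 4 sham. Because whole tissue was measured, fewer cells of a type and less RNA per cell cannot be told apart in any value below.

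All 6 genes are protein-coding. By the GENCODE annotation of GRCm39, Dusp1 lies on the minus strand at chr17:26724564-26781102, Dusp4 on the plus strand at chr8:35274442-35287048 and Dusp5 on the plus strand at chr19:53517532-53530862. Dusp6 lies on the plus strand at chr10:99086564-99103361, Dusp8 on the minus strand at chr7:141633226-141649580 and Dusp14 on the minus strand at chr11:83938521-83960087. Dusp4 and Dusp14 overlap no other annotated gene, whereas Dusp1, Dusp5, Dusp6 and Dusp8 each overlap at least 1 gene on the opposite strand. Whether the counting used strand is not given in the sources used here, so reads of such partners may not be separated. On their own strand Dusp1 also overlaps Gm50274 and Gm50275, and Dusp6 overlaps Gm56968, which strand alone cannot separate.

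The 250 bases upstream of the canonical start were read from GRCm39 for 4 members, to show what the family's promoters do and do not share. Dusp1 and Dusp6 are shown because their transcripts differed most between CHI and sham mice, Dusp5 because it differed most between time points, and Dusp8 because it shares a motif with Dusp1. Each is written 5′ to 3′ on the gene's own strand, and capitals mark matches to the cyclic AMP response element (CRE) TGACGTCA, to its core TGACG, or, in Dusp5, to the CArG box bound by serum response factor.
Dusp1 (chr17:26727494-26727743, minus strand): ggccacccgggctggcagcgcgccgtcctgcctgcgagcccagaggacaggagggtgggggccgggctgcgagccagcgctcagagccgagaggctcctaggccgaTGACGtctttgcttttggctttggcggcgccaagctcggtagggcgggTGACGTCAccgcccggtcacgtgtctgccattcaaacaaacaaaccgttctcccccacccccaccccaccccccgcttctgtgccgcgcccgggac
Dusp8 (chr7:141649053-141649302, minus strand): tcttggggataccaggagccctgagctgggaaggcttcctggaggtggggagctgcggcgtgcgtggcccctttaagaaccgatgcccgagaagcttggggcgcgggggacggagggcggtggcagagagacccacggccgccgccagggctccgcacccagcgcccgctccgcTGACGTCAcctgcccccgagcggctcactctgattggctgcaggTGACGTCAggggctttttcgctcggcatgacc
Dusp5 (chr19:53517282-53517531, plus strand): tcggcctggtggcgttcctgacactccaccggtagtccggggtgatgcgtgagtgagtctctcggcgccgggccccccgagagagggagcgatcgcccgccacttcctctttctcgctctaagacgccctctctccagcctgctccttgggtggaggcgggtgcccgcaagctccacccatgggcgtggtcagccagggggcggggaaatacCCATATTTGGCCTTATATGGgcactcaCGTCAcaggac
Dusp6 (chr10:99098818-99099067, plus strand): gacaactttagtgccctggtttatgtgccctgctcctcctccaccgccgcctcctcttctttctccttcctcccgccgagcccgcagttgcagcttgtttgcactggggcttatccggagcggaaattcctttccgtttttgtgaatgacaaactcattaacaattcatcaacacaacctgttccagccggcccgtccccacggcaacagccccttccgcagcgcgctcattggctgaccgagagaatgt

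Both strands of these windows were searched for 8 motifs, and each share below is over 21667 promoters of the same length. The CRE, which 1.68% of promoters held, stood 96 bases before the Dusp1 start and 76 and 32 bases before the Dusp8 start. Its core TGACG, which every CRE contains and 18.0% of promoters held, also matched once more in Dusp1, once in Dusp4 and once on the minus strand of Dusp5. The CArG box, held by 1.4% of promoters, matched Dusp5 at 38 and 28 bases before its start. Dusp14 held the ETS core CCGGAA, found in 12.4% of promoters, 77 bases before its start. The Dusp6 window matched none of the 8. No member's window matched the AP-1 site TGANTCA (6.18% of promoters), the EGR site GCGNGGGCG (4.47%), the glucocorticoid receptor core AGAACA (14.3%) or the TATA box TATAAA (11.9%). These matches are descriptions of letters in a short window.

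In TPM, which allows levels of different genes to be compared, Dusp14 and Dusp8 were the most abundant, with medians of 63.5 and 59.3 TPM over the 200 mice. Dusp6 followed at 44.5 TPM and Dusp1 at 30.0 TPM, and Dusp5 and Dusp4 were lowest at 7.88 and 6.65 TPM. Over the 24 groups of strain, surgery and time, the group mean of Dusp6 exceeded that of Dusp1 in all 24, and Dusp1 exceeded both Dusp5 and Dusp4 in all 24. The neighbours at either end of this order were not separated. Dusp14 stood above Dusp8 in 17 groups and Dusp5 above Dusp4 in 17 groups.

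Dusp8 was the steadiest member, with group means within a 1.41-fold range and a coefficient of variation among mice of one group of 8.98%. Dusp5 and Dusp1 varied most between groups, by 3.38-fold and 3.17-fold, followed by Dusp6 at 2.55-fold, Dusp4 at 2.30-fold and Dusp14 at 1.92-fold. Among mice of one group Dusp1 had the widest spread, at 27.4%, and Dusp5, Dusp4, Dusp6 and Dusp14 varied by 24.8%, 23.8%, 19.4% and 17.0%. The highest mean of Dusp1, Dusp4, Dusp6 and Dusp14 was in C57BL/6J sham mice at 9 h, that of Dusp5 in C57BL/6J CHI mice at 9 h and that of Dusp8 in IL-1R1 gKO sham mice at 9 h.

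To ask how the phosphatases responded to injury in normal mice, CHI and sham mice of the C57BL/6J strain were compared at 9 h. Dusp1 and Dusp6 fell to 0.509 and 0.578 of the sham level, Dusp4 and Dusp14 fell by less, and neither Dusp5 nor Dusp8 passed the test. Changes are given as log2 fold changes of CHI over sham from the quasi-likelihood test of edgeR, corrected for sex and age, with p-values adjusted over every gene tested, and were called at an adjusted p under 0.05. In this comparison 14.1% of 16967 genes were called, 7% as lower, against 4 of the 6 phosphatases, all 4 lower.

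Dusp6, the cytoplasmic ERK phosphatase, gave the one separation without overlap. The 6 sham mice lay between 57.6 and 79.2 TPM with a median of 66.8, and the 15 CHI mice between 22.7 and 56.3 TPM with a median of 39.3. Every CHI mouse was thus below every sham mouse, which held for 0.236% of the genes tested, while 0.754% did not overlap in either direction. The means were 39.9 ± 8.48 TPM (SD, n = 15) and 68.1 ± 8.24 TPM (SD, n = 6), and the log2 fold change was -0.79 (SE 0.0946, edgeR adjusted p = 4.89e-06).

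Dusp1, the broadly acting nuclear phosphatase, ran from 32.4 to 71.6 TPM in sham mice with a median of 63.4, and from 20.3 to 42.8 TPM in CHI mice with a median of 31.3. One sham mouse lay within the CHI range, the other 5 were above every CHI mouse, and 10 of the 15 CHI mice were below every sham mouse. The mean fell from 59.2 ± 15.1 TPM (SD, n = 6) to 30.7 ± 5.80 TPM (SD, n = 15), a log2 fold change of -0.97 (SE 0.146, edgeR adjusted p = 0.000118).

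Dusp4, a nuclear phosphatase of ERK and JNK, overlapped more. Sham mice spanned 5.92 to 13.1 TPM (median 9.93) and CHI mice 4.36 to 10.4 TPM (median 7.00), with 3 CHI mice below every sham mouse and 14 of 15 below the sham median. Its log2 fold change was -0.37 (SE 0.112, edgeR adjusted p = 0.0246). Dusp14 spanned 72.2 to 114 TPM in sham mice (median 91.6) and 52.2 to 96.2 TPM in CHI mice (median 85.8), and 5 CHI mice were below every sham mouse. Its log2 fold change was -0.23 (SE 0.0668, edgeR adjusted p = 0.0230). These last 2 calls rested on single sham mice, since Dusp4 was no longer called in 3 of the 6 fits that left out 1 sham mouse (without A178, A180 or A194, highest adjusted p = 0.111) and Dusp14 in 4 of the 6 (without A087, A093, A193 or A194, highest adjusted p = 0.0589).

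Dusp8 spanned 53.4 to 68.5 TPM in CHI mice (median 60.3) and 58.6 to 82.1 TPM in sham mice (median 66.2), with a log2 fold change of -0.12 (SE 0.0457, adjusted p = 0.0961). Dusp5 was the one member with a higher CHI mean. It spanned 15.5 to 27.0 TPM in CHI mice (median 20.1) and 11.8 to 24.6 TPM in sham mice (median 17.8), and its log2 fold change of 0.21 (SE 0.118, adjusted p = 0.251) was not called.

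**Figure D1:**
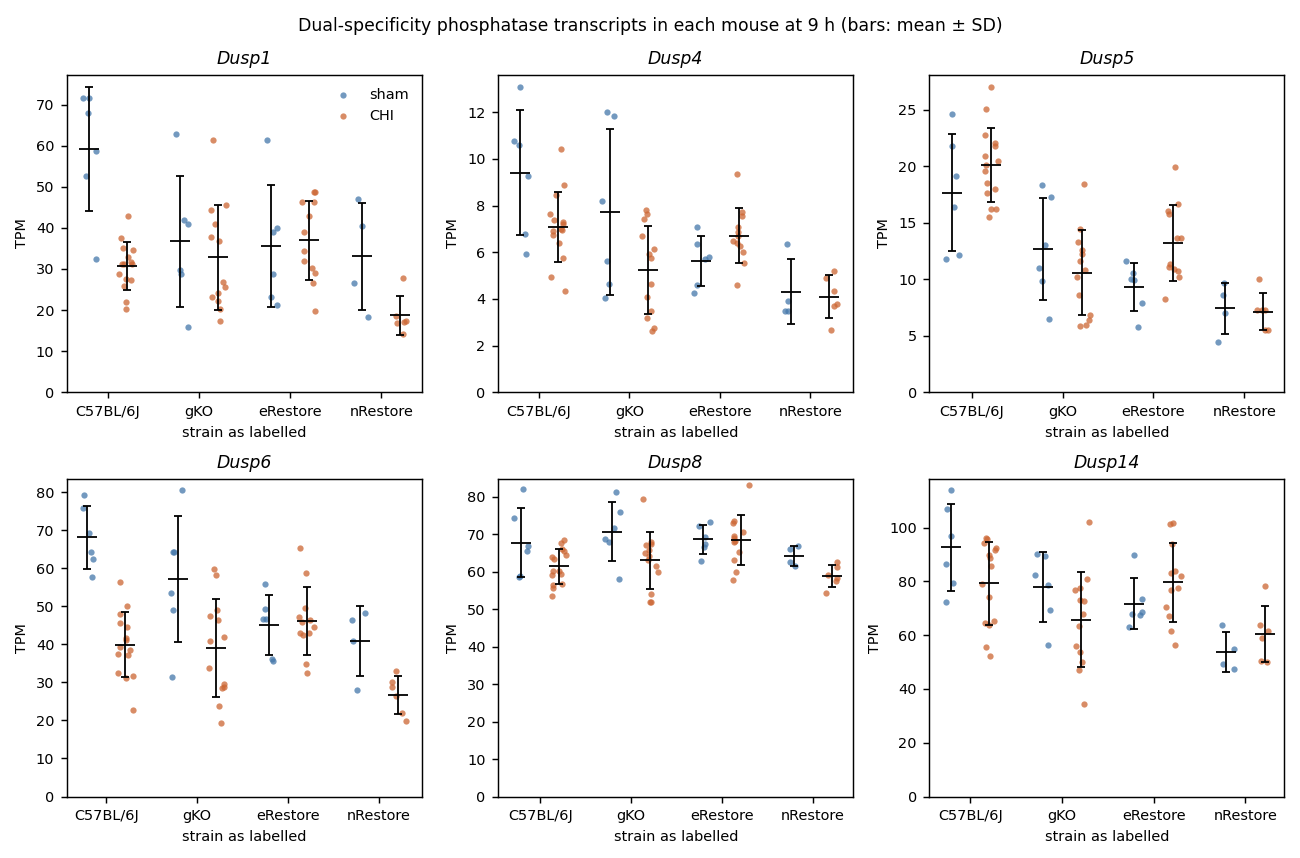
TPM of each phosphatase in every mouse at 9 h, by strain and surgery, with 1 point per mouse and bars for the mean and SD of the group. In C57BL/6J the CHI points of Dusp6 all lie below the sham points and those of Dusp1 overlap a single sham mouse, while in IL-1R1 eRestore the points of the 2 surgeries overlap widely for both genes.

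The C57BL/6J mice at 9 h came from a pair of experiments, and the lower levels of Dusp1 and Dusp6 were present in each. In the larger, with 10 CHI and 4 sham mice, the mean difference in log2 CPM (counts scaled for library size) was -1.03 for Dusp1 and -0.75 for Dusp6, and in the smaller, with 5 and 2 mice, it was -0.70 and -0.88. Dusp4 differed by -0.47 in the larger and -0.17 in the smaller.

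Other cell types moved in the same comparison. Of 5 microglia markers, P2ry12 and Tmem119 fell and 3 were not called, with a summed level of 145.3 to 313.6 TPM in CHI mice against 219.2 to 384.1 TPM in sham mice. Of 4 endothelial markers 2 rose and 1 fell (154.3 to 242.0 TPM against 123.7 to 176.4 TPM). One of 5 astrocyte markers (Aldh1l1, 0.38, edgeR adjusted p = 0.000515) and 1 of 3 oligodendrocyte precursor markers (Pdgfra, 0.30, edgeR adjusted p = 0.00441) rose, and no neuron, striatal, hippocampal or oligodendrocyte marker was called. None of 5 choroid plexus markers was called, but their sum ran from 5.20 to 2523 TPM in CHI and 16.7 to 5996 TPM in sham mice. Folr1 and Kcnj13 of the choroid plexus list were at 0 TPM in at least 1 mouse at 9 h, and no microglia or endothelial marker was at 0 in any. The part of these cells in the members' change was not tested, except that with the mice over 1000 TPM of choroid plexus markers left out (13 CHI and 4 sham mice, a comparison chosen after the data were seen) Dusp1 differed by -0.85 (edgeR adjusted p = 0.00542) and Dusp6 by -0.71 (edgeR adjusted p = 0.000624), whereas Dusp4 (adjusted p = 0.113) and Dusp14 (adjusted p = 0.0964) were no longer called.

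The same comparison was made in each IL-1R1 strain at 9 h, where no member passed the test. The share of all genes called was 0.199% in IL-1R1 gKO, 7.34% in IL-1R1 eRestore and 0.608% in IL-1R1 nRestore. At an unadjusted p under 0.05 edgeR gave 3 members in IL-1R1 gKO (Dusp4, Dusp6 and Dusp8), 1 in IL-1R1 eRestore (Dusp5) and 2 in IL-1R1 nRestore (Dusp1 and Dusp6), where 10.7%, 25.9% and 13.1% of all genes reached that p. DESeq2 called 1 member in each strain, namely Dusp6, Dusp5 and Dusp6, among 218, 1991 and 399 genes.

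In IL-1R1 gKO mice Dusp6 again had the smallest p of the 6. Sham mice ran from 31.5 to 80.4 TPM with a median of 58.9, and CHI mice from 19.4 to 59.9 TPM with a median of 41.0. Of the 13 CHI mice 12 were below the sham median and 5 below every sham mouse, so the groups overlapped. The log2 fold change was -0.56 (SE 0.128, edgeR adjusted p = 0.0763), and CHI was lower in each of the 3 experiments, by -0.27, -0.67 and -0.67. The call depended on the method, since DESeq2 gave Dusp6 an adjusted p of 0.00728 and edgeR with experiment in place of age gave 0.0367. Dusp1 ran from 17.4 to 61.4 TPM in CHI mice (median 26.8) and from 15.9 to 62.8 TPM in sham mice (median 35.3), nearly the same range, with a log2 fold change of -0.14 (SE 0.213, adjusted p = 0.872). The log2 fold changes of the other 4 were -0.45 for Dusp4, -0.21 for Dusp14, -0.20 for Dusp5 and -0.16 for Dusp8.

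In IL-1R1 eRestore mice neither Dusp1 nor Dusp6 was called, and over all mice the surgeries overlapped. Dusp1 ran from 19.7 to 48.7 TPM in CHI mice (median 36.7) and 21.3 to 61.3 TPM in sham mice (median 33.9), and its log2 fold change was 0.05 (SE 0.215, adjusted p = 0.916). Dusp6 ran from 32.3 to 65.4 TPM in CHI mice (median 45.2) and 35.6 to 55.8 TPM in sham mice (median 46.7), a log2 fold change of -0.04 (SE 0.101, adjusted p = 0.836). The 2 experiments of these mice differed in sign for Dusp6. In the larger, with 8 CHI and 3 sham mice, the mean difference in log2 CPM was 0.24 for Dusp6 and 0.21 for Dusp1. In the smaller it was -0.36 for Dusp6 and -0.03 for Dusp1. There the 4 CHI mice had 34.9 to 46.5 TPM of Dusp6 and the 3 sham mice 46.8 to 55.8 TPM. The share of all genes separated this way in so few mice was not counted. The largest change was that of Dusp5, which ran from 8.27 to 19.9 TPM in CHI mice (median 12.5) and 5.74 to 11.6 TPM in sham mice (median 9.99). For this gene 6 of 12 CHI mice were above every sham mouse, and the log2 fold change was 0.51 (SE 0.186, edgeR adjusted p = 0.0970; DESeq2 adjusted p = 0.0340). Dusp4, Dusp14 and Dusp8 gave 0.24, 0.12 and 0.01.

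The IL-1R1 nRestore mice at 9 h came from a single experiment. The 4 sham mice had 18.4, 26.5, 40.3 and 47.1 TPM of Dusp1, and the 6 CHI mice ran from 14.3 to 27.8 TPM with a median of 17.3. Dusp6 stood at 28.0, 40.9, 46.4 and 48.1 TPM in the sham mice and at 20.0 to 33.0 TPM (median 27.6) in the CHI mice. All 6 CHI mice lay below the sham median for both genes, but 2 sham mice for Dusp1 and 1 for Dusp6 fell within the CHI range. The log2 fold changes were -0.48 (SE 0.206, adjusted p = 0.362) for Dusp1 and -0.49 (SE 0.147, edgeR adjusted p = 0.178; DESeq2 adjusted p = 0.0333) for Dusp6. Dusp4, Dusp8, Dusp5 and Dusp14 gave -0.18, -0.08, 0.07 and 0.10.

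**Figure D2:**
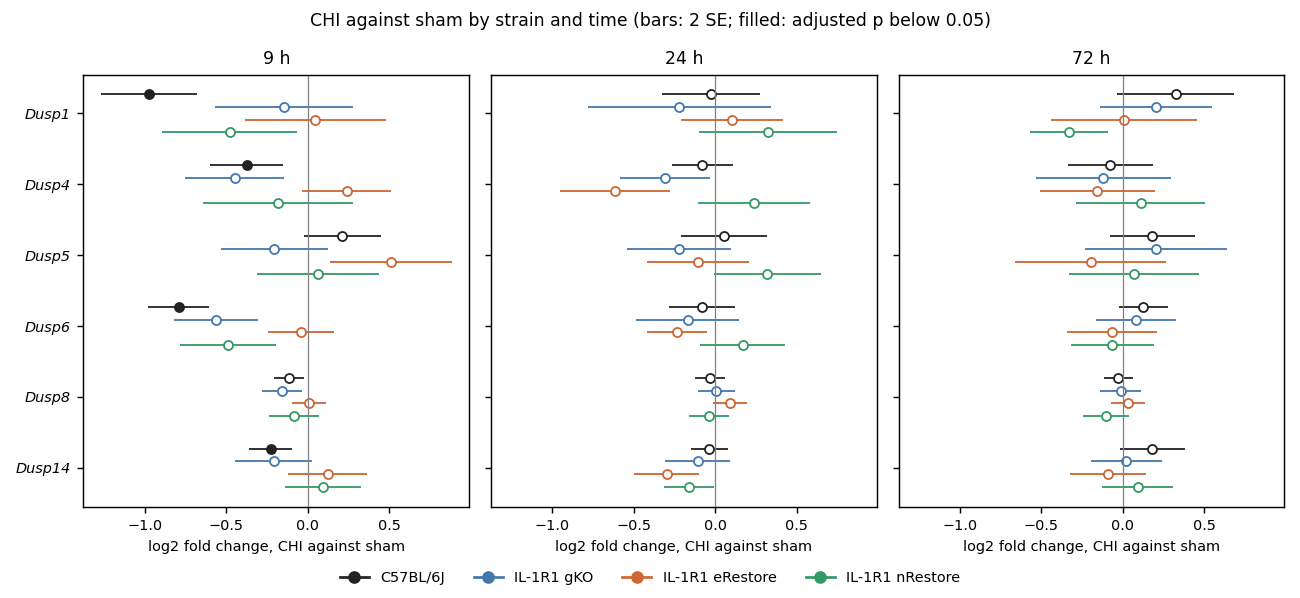
Log2 fold change of CHI over sham for each phosphatase in each strain at 9, 24 and 72 h, with lines of 2 SE to either side and filled points where the adjusted p was under 0.05. Called values are found only in C57BL/6J at 9 h, where Dusp1 (-0.97) and Dusp6 (-0.79) lie farthest from 0.

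Whether the response differed between strains was tested directly, as the CHI effect in each IL-1R1 strain minus that in C57BL/6J, where the same C57BL/6J mice serve all 3 comparisons. At 9 h, IL-1R1 eRestore differed for Dusp1 and Dusp6. The difference was 1.04 for Dusp1 (SE 0.263, edgeR adjusted p = 0.0469) and 0.78 for Dusp6 (SE 0.157, edgeR adjusted p = 0.0176), in a comparison that called 0.817% of genes, 0.403% as higher. Dusp4 gave 0.63 (adjusted p = 0.104), Dusp14 0.37 (adjusted p = 0.228), Dusp5 0.29 and Dusp8 0.13. The Dusp1 call was lost in 8 of 12 fits that each left out 1 sham mouse (C57BL/6J A087, A178, A193 or A194, or IL-1R1 eRestore A097, A098, A188 or A189, with adjusted p over all 12 from 0.0223 to 0.106), whereas Dusp6 stayed called in all 12 (adjusted p from 0.0122 to 0.0383). Neither was called with no covariates (adjusted p = 0.0985 for Dusp1 and 0.0745 for Dusp6) or with the mice over 1000 TPM of choroid plexus markers left out (0.0563 and 0.0601), and Dusp1 was not called with experiment in place of age (0.0819, against 0.0482 for Dusp6), with no filter on low counts (0.0862, against 0.0338) or in the largest experiment alone (0.112, against 0.0134).

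No member differed in the other strains at 9 h, in comparisons that called 0.00567% of genes for IL-1R1 gKO and 0.00555% for IL-1R1 nRestore. The IL-1R1 nRestore mice at 9 h shared no experiment with the C57BL/6J mice and were all younger. Strain, experiment and age therefore cannot be told apart in that comparison. The largest member differences were 0.84 for Dusp1 in IL-1R1 gKO (SE 0.277, adjusted p = 0.726) and 0.59 for Dusp14 in IL-1R1 nRestore (adjusted p = 0.400). At an unadjusted p under 0.05 edgeR gave Dusp1 in IL-1R1 gKO and Dusp6 and Dusp14 in IL-1R1 nRestore, with 5.29% and 8.50% of all genes, and DESeq2 called none. At 24 h 0.0114% of genes were called for IL-1R1 gKO and 0% for the other strains, and at 72 h 0% for all 3, and no member was called. In those 5 comparisons without an edgeR call, between 597 and 1019 genes had an unadjusted p under 0.05 and DESeq2 called between 0 and 11 genes, none of them a member. Members at that unadjusted p were Dusp4 (-0.49) and Dusp14 (-0.22) for IL-1R1 eRestore at 24 h, both with an edgeR adjusted p of 1.00, and Dusp1 (-0.67, edgeR adjusted p = 0.752) for IL-1R1 nRestore at 72 h.

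Since a difference between effects can arise on either side, the 2 surgeries were also compared between these strains, a step chosen after the data were seen. Sham mice of IL-1R1 eRestore had less Dusp4, Dusp5 and Dusp6 than C57BL/6J sham mice at 9 h, and 1.62% of all genes were called. The log2 differences were -0.75 for Dusp4 (SE 0.163, edgeR adjusted p = 0.00657), -0.84 for Dusp5 (SE 0.185, edgeR adjusted p = 0.00773) and -0.55 for Dusp6 (SE 0.133, edgeR adjusted p = 0.0197). Dusp1 gave -0.77 (SE 0.224) and was not called by edgeR (adjusted p = 0.0720) but was by DESeq2 (adjusted p = 0.0263). Dusp14 gave -0.24 and Dusp8 0.05. Among CHI mice of the same strains, where 13.6% of genes were called, Dusp5 was lower in IL-1R1 eRestore by -0.55 (SE 0.129, edgeR adjusted p = 0.00285) and Dusp8 higher by 0.17 (SE 0.0393, edgeR adjusted p = 0.00212). Dusp1 (0.27), Dusp6 (0.23), Dusp14 (0.13) and Dusp4 (-0.12) were not called there. For both Dusp1 and Dusp6 the strain difference was thus negative among sham mice and positive among CHI mice. Within the larger 9 h experiment the mean of Dusp6 was 39.5 TPM in 3 IL-1R1 eRestore sham mice (35.6 to 46.6 TPM). In 4 C57BL/6J sham mice it was 70.5 TPM (57.6 to 79.2 TPM). These ranges did not overlap, but so few mice separate easily, and the share of all genes separated this way was not counted.

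**Figure D3:**
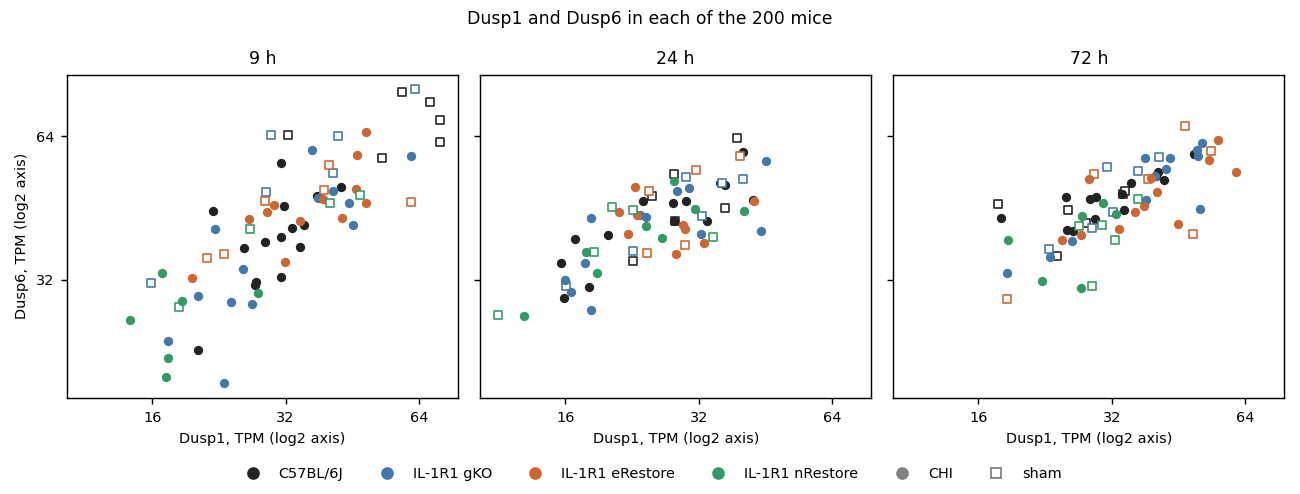
Dusp1 (horizontal axis) and Dusp6 (vertical axis) in TPM on log2 axes, with 1 point per mouse for all 200 mice at 9, 24 and 72 h, coloured by strain, filled for CHI and open for sham. At 9 h the 6 C57BL/6J sham mice lie toward the top, at or above 57.6 TPM of Dusp6, and toward the right except for 1 mouse at 32.4 TPM of Dusp1. Single mice of other groups reach these values. Dusp6 was up to 80.4 TPM in IL-1R1 gKO sham and 65.4 TPM in IL-1R1 eRestore CHI mice. Dusp1 was up to 62.8 TPM in IL-1R1 gKO sham and 61.4 TPM in IL-1R1 gKO CHI mice. At 24 and 72 h the C57BL/6J sham mice lie among the rest.

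With the 4 strains in one model and strain as a further covariate, CHI and sham mice were compared at each time. At 9 h 26.5% of genes were called, 13.8% as lower, and 4 of the 6 phosphatases fell. Dusp6 fell by 0.51 on the log2 scale (SE 0.0792, edgeR adjusted p = 8.65e-07) and Dusp1 by 0.48 (SE 0.121, edgeR adjusted p = 0.00173). Dusp4 fell by 0.22 (SE 0.0854, edgeR adjusted p = 0.0440) and Dusp8 by 0.10 (SE 0.0314, edgeR adjusted p = 0.0120). Dusp5 (0.10, adjusted p = 0.525) and Dusp14 (-0.07, adjusted p = 0.496) were not called. Cell type markers moved with these values. All 5 choroid plexus markers, 3 of 5 microglia markers (P2ry12, Tmem119 and Csf1r) and 2 of 4 striatal neuron markers (Drd1, -0.57, and Drd2, -0.96) fell in this pooled comparison. Of 4 endothelial markers 3 rose and 1 fell, of 5 astrocyte markers 1 rose (Aldh1l1, 0.31) and 1 fell, and 1 of 6 neuron markers (Rbfox3, 0.16), 1 of 3 oligodendrocyte precursor markers (Pdgfra, 0.20) and 1 of 4 hippocampal neuron markers rose. Their part in the members' change was not tested, except that with the mice over 1000 TPM of choroid plexus markers left out Dusp4 was no longer called (adjusted p = 0.0573) while the other 3 were. The pooled values average over strains. For Dusp1 and Dusp6 the effect in IL-1R1 eRestore was called different from that in C57BL/6J, with calls lost in some alternative fits. No member was called different in the other strains.

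At 24 and 72 h no phosphatase was called in any strain. At 24 h, 5 of 12 IL-1R1 gKO, 4 of 9 IL-1R1 eRestore and 4 of 8 IL-1R1 nRestore CHI mice came from 1 experiment. That experiment held no sham mouse of these strains, and its CHI mice were older than the 24 h sham mice of their strain. Surgery, experiment and age are thus partly tied in these 24 h comparisons. The share of genes called at 24 h was 0.404% in C57BL/6J, 0.0059% in IL-1R1 gKO and 0% in both IL-1R1 eRestore and IL-1R1 nRestore. At 72 h it was 0% in C57BL/6J and IL-1R1 gKO, 0.00605% in IL-1R1 eRestore and 0.0121% in IL-1R1 nRestore. In the 4 groups without an edgeR call, the genes at an unadjusted p under 0.05 numbered 1494 and 740 at 24 h and 869 and 376 at 72 h, and DESeq2 called 55, 3, 41 and 0 genes. Of the members, an unadjusted p under 0.05 was reached by Dusp4 in IL-1R1 gKO and by Dusp4, Dusp6 and Dusp14 in IL-1R1 eRestore at 24 h, and by Dusp1 in IL-1R1 nRestore at 72 h, and DESeq2 called none of the 6. In the pooled model 1.96% of genes were called at 24 h and 0.717% at 72 h, again with none of the 6 by edgeR or DESeq2. Dusp4 (-0.18, adjusted p = 0.233) and Dusp14 (-0.12, adjusted p = 0.182) had an unadjusted p under 0.05 in the pooled model at 24 h, and no member had at 72 h.

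In C57BL/6J the 24 h log2 fold changes lay between -0.08 and 0.05 for all 6. Dusp1 ran from 15.6 to 42.4 TPM in CHI mice (median 28.1) and 22.8 to 39.1 TPM in sham mice (median 28.2). Dusp6 ran from 29.3 to 59.4 TPM (median 44.4) and 35.0 to 63.7 TPM (median 46.6). Both genes thus overlapped widely between surgeries, and the 2-SE intervals of the fold change ran from -0.32 to 0.28 for Dusp1 and from -0.28 to 0.12 for Dusp6. At 72 h Dusp1 gave 0.32 (2-SE interval -0.03 to 0.68, adjusted p = 0.908) and Dusp6 0.12 (SE 0.0756, adjusted p = 0.908).

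The widest change at the later times was that of Dusp4 in IL-1R1 eRestore at 24 h. The 5 sham mice had 5.51, 5.73, 9.25, 11.3 and 11.4 TPM and the 9 CHI mice 5.24 to 8.81 TPM with a median of 6.23. The 3 highest sham mice were above every CHI mouse, and the other 2 lay below the CHI median. Of the 9 CHI mice 4 came from the experiment without sham mice of this strain. Within the experiment that held the other 5 CHI mice and 4 of the sham mice, the mean difference of Dusp4 in log2 CPM was -0.52. The log2 fold change was -0.62 (SE 0.169, edgeR adjusted p = 0.322), and Dusp14 (-0.30, adjusted p = 0.370) and Dusp6 (-0.23, adjusted p = 0.451) had the next smallest p in that group. With no filter on low counts edgeR called Dusp4 (adjusted p = 0.00637) and Dusp14 (adjusted p = 0.0494) there. In IL-1R1 nRestore at 72 h Dusp1 had 27.0, 28.9, 30.4, 32.5 and 36.7 TPM in sham mice and 18.6 to 32.8 TPM (median 27.4) in CHI mice, a log2 fold change of -0.33 (SE 0.119, adjusted p = 0.785).

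Whether the C57BL/6J effect at 9 h differed from that at later times was tested as a difference between times, in which the same 9 h mice serve both comparisons. The CHI effect on Dusp1 was lower at 9 h than at 24 h by -0.85 (SE 0.248, edgeR adjusted p = 0.0311) and lower than at 72 h by -1.38 (SE 0.252, edgeR adjusted p = 0.000163). For Dusp6 the differences were -0.67 (SE 0.153, edgeR adjusted p = 0.00335) and -0.95 (SE 0.155, edgeR adjusted p = 2.15e-05). The Dusp1 difference from 24 h was no longer called with no filter on low counts (adjusted p = 0.0618) or with no covariates. These 2 members alone were called, against 5.05% of genes (2.34% lower) for 24 h and 6.92% (3.35% lower) for 72 h. In the other strains no member was called, where the share of genes called against 24 h and 72 h was 0.349% and 0.0776% in IL-1R1 gKO, 0.195% and 0.551% in IL-1R1 eRestore, and 0.114% and 0.18% in IL-1R1 nRestore. At an unadjusted p under 0.05 edgeR gave Dusp6 against 72 h in IL-1R1 gKO, Dusp4 against 24 h and Dusp5 against 72 h in IL-1R1 eRestore, and Dusp1, Dusp6 and Dusp14 against 24 h in IL-1R1 nRestore, while between 8.02% and 14.3% of all genes reached that p in the 6 comparisons. DESeq2 called no member there. In IL-1R1 nRestore the 72 h mice were all male and the 9 h mice mostly female, so sex and time were nearly tied in that comparison.

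The CHI effect at 9 h was also compared between males and females over the 4 strains. The differences of the 6 members lay between -0.20 for Dusp14 and 0.17 for Dusp1, and none was called, with 0% of genes called. For 370 genes the unadjusted p was under 0.05, among them no member, and DESeq2 called 1 gene, which was not a member. The 2-SE interval for Dusp6 ran from -0.35 to 0.30.

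Levels were then compared between times within each surgery, over the 4 strains, with strain and sex as covariates. Age was left out because it follows the time point, so time, age, experiment and clock hour cannot be told apart. In sham mice 5 of the 6 phosphatases were higher at 9 h than at 24 h, where 48.9% of genes were called (24.1% higher), and the same 5 were higher than at 72 h (46.8% called, 23.3% higher). The log2 differences from 24 h and 72 h were 0.87 and 0.78 for Dusp5, 0.65 and 0.42 for Dusp1, 0.37 and 0.28 for Dusp8, 0.34 and 0.29 for Dusp6, and 0.29 and 0.41 for Dusp14, with edgeR adjusted p from 7.71e-16 to 0.0160. Dusp4 gave -0.10 and 0.02 and was not called. The model holds a single time difference for all strains, and the strains were not tested apart. In C57BL/6J sham mice Dusp6 ran from 57.6 to 79.2 TPM at 9 h and 35.0 to 63.7 TPM at 24 h. In IL-1R1 eRestore sham mice it ran from 35.6 to 55.8 TPM at 9 h and 36.4 to 58.3 TPM at 24 h, with no visible rise at 9 h.

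In CHI mice 72.6% of genes were called between 9 and 24 h (36.4% higher) and 72.4% between 9 and 72 h. Dusp5 was again the most changed, at 1.06 above 24 h and 0.88 above 72 h. Dusp14 (0.35 and 0.29) and Dusp8 (0.29 and 0.21) were also higher at 9 h. Dusp1 was 0.25 above 24 h (edgeR adjusted p = 0.0112) and did not pass against 72 h (-0.09), and Dusp6 was not called against 24 h (-0.03) and was 0.19 lower at 9 h than at 72 h (-0.19, edgeR adjusted p = 0.00410). Dusp4 was not called against either. In C57BL/6J CHI mice Dusp5 ran from 15.5 to 27.0 TPM at 9 h, 3.87 to 10.1 TPM at 24 h and 5.95 to 10.2 TPM at 72 h. Every 9 h mouse was thus above every later one. How many of all genes separate in this way between times was not counted, so the separation is not read as particular to Dusp5. In IL-1R1 nRestore CHI mice the 9 h values of 5.47 to 9.98 TPM overlapped those at 24 h (5.04 to 7.57 TPM). Those 9 h mice came from a single experiment, in which IL-1R1 gKO CHI mice had a similar 5.89 to 10.2 TPM of Dusp5. In the other 9 h experiments IL-1R1 gKO CHI mice had means of 14.2 and 12.2 TPM, so strain and experiment cannot be told apart for this overlap.

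**Figure D4:**
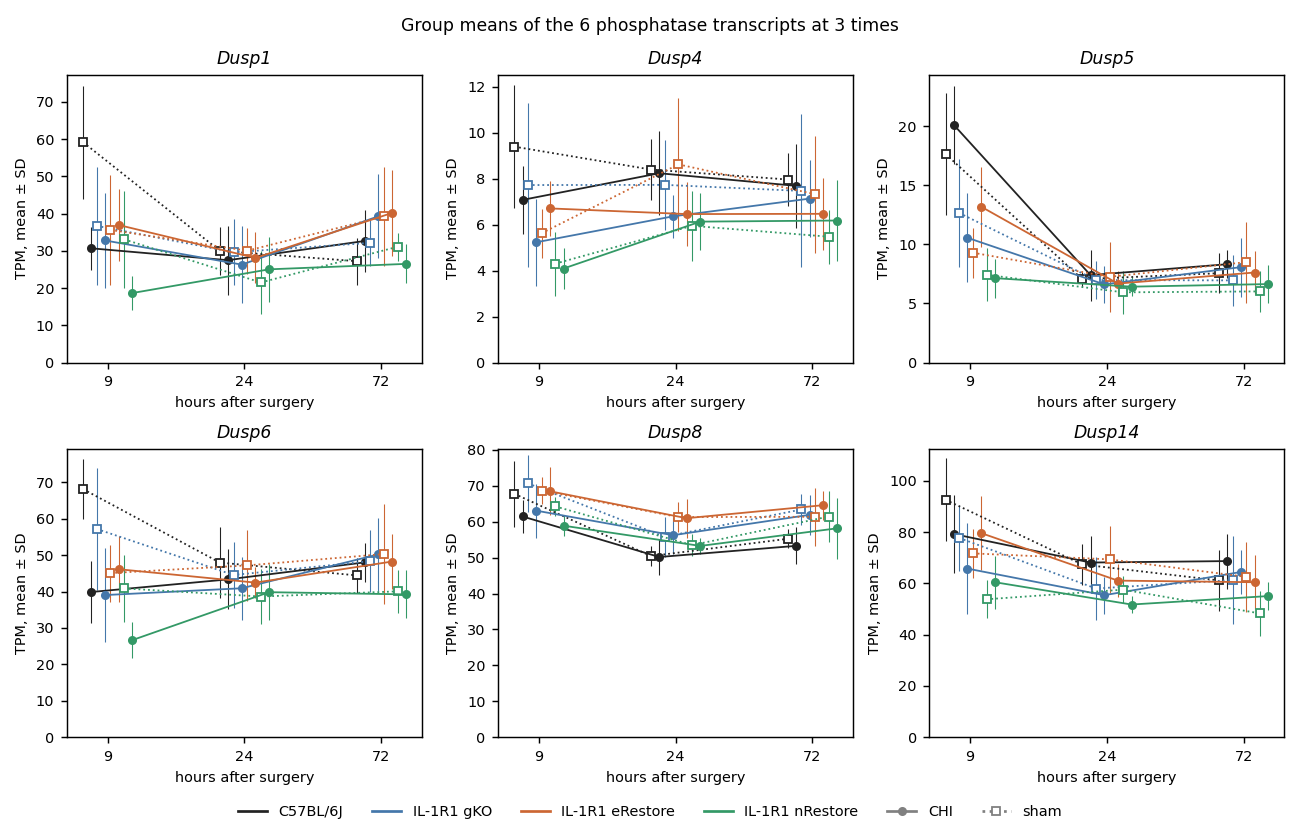
Mean TPM of each phosphatase at 9, 24 and 72 h by strain, with SD as vertical lines, filled symbols and solid lines for CHI mice and open symbols and dotted lines for sham mice. Dusp5 is highest at 9 h, at 20.1 TPM in C57BL/6J CHI mice, and the C57BL/6J sham means of Dusp1 (59.2 TPM) and Dusp6 (68.1 TPM) stand above all other groups at 9 h.

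The wider pathway was followed at 9 h through gene lists. In C57BL/6J 14.1% of all genes were called, 7% as lower, and the counts of calls below are to be read beside that share. No list was tested as a set against it. Of the 10 typical MAP kinase phosphatases, which carry the kinase-binding domain and include 5 of the members, 4 fell and 1 rose in C57BL/6J (median log2 fold change -0.09, against -0.01 over all genes). Besides Dusp1, Dusp4 and Dusp6, Dusp16, a JNK phosphatase, fell (-0.29), and Dusp9, the close relative of Dusp6, rose (1.16). Of 13 tested atypical and other dual-specificity phosphatases Dusp14 and Dusp19 (-0.51) fell and none rose, a count near the share of all genes called.

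Among the kinases of the pathway, 1 of 13 MAP kinases rose and 2 fell, including Mapk6, which rose (0.29), and Nlk, which fell (-0.32). None of 7 MAP kinase kinases was called, and of 12 Ras and Raf components 2 rose, of which one was Ksr1, a scaffold of the ERK cascade (0.67). None of 4 JNK scaffold genes was called, and of 11 kinases activated by ERK or p38 Rps6ka5 rose (0.27) and Rps6ka3 fell (-0.25). Some further inhibitors of the pathway were also lower, but most were not called. Of 6 Sprouty and Spred genes, whose products block Ras activation, Spry4 (-0.43) and Spred3 (-0.44) fell and 4 were not called, and of 2 tested tyrosine phosphatases of MAP kinases Ptprr fell (-0.34).

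ERK signalling also induces a set of transcription factor and feedback genes. Of 12 such genes, 7 fell and 1 rose in C57BL/6J, with a median log2 fold change of -0.49. Egr2 fell by 2.69, Fos by 1.79, Egr1 by 1.33, Junb by 1.06 and Ier2 by 0.98 on the log2 scale, and Phlda1 (-0.51) and Etv5 (-0.47) fell less. Myc rose (0.60). Of 10 glucocorticoid-responsive genes 7 rose and none fell (median 0.61), led by Fkbp5 (1.98) and Cdkn1a (1.94).

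In IL-1R1 eRestore at 9 h, where 7.34% of all genes were called, the typical phosphatases gave no call in either direction. The ERK-induced list gave 1 higher (Fosl1, 0.80) and 1 lower (Egr2, -0.68). Calls in the other pathway lists included Ksr1 (0.30), Ksr2 (0.33), Grb2 (0.19), Map2k6 (0.29) and Rps6ka2 (0.39), all higher, and Dusp19 (-0.38), which was lower. The values of the 2 strains stood side by side at -1.06 and 0.02 for Junb, -0.98 and -0.02 for Ier2, and -1.79 and -0.41 for Fos. The direct test of the strain difference called 4 of the 12 ERK-induced genes and 2 of the 10 typical phosphatases higher in IL-1R1 eRestore, and none lower. Of all genes 0.403% were called higher there. The 2 phosphatases were Dusp1 and Dusp6, whose calls are those given above, together with the fits in which they were lost. In IL-1R1 gKO no gene of any of these pathway lists was called, where only 0.199% of all genes were. In IL-1R1 nRestore, where 0.608% of all genes were called, the ERK-induced list gave 1 higher and 1 lower, and Rps6ka2 was also higher (0.37). At 24 and 72 h the pooled model called none of the 10 typical phosphatases and none of the 12 ERK-induced genes, against 1.96% and 0.717% of all genes.

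**Figure D5:**
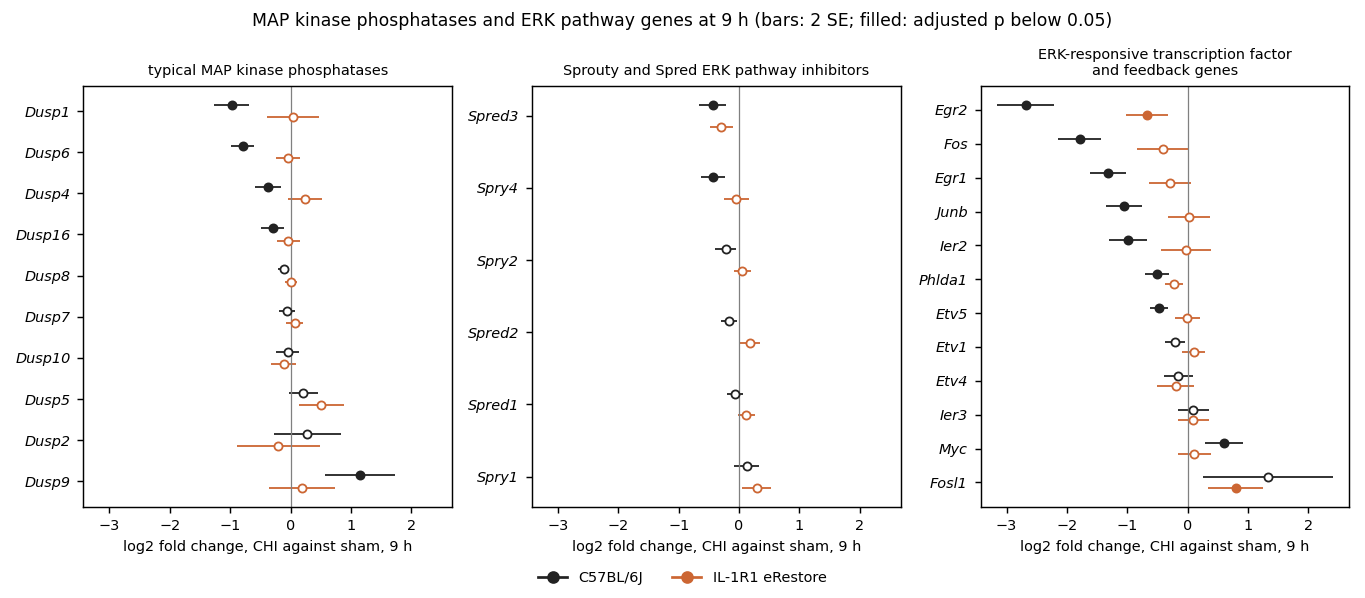
Log2 fold changes of CHI over sham at 9 h in C57BL/6J and IL-1R1 eRestore mice for the typical MAP kinase phosphatases, the Sprouty and Spred inhibitors and the ERK-induced genes, with lines of 2 SE to either side and filled points where the adjusted p was under 0.05. In C57BL/6J 4, 2 and 7 genes of these lists are filled to the left of 0, against 0, 0 and 1 in IL-1R1 eRestore. Over all genes 14.1% were called in C57BL/6J and 7.34% in IL-1R1 eRestore, in either direction.

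The members did not vary as one. Over the 24 group means of log2 CPM, Dusp1 and Dusp6 correlated at 0.83 and Dusp5 and Dusp14 at 0.87, whereas Dusp4 and Dusp8 gave -0.12. Over the 200 mice, after subtraction of each group's mean, the same pairs gave 0.71, 0.54 and 0.28. The points of such a correlation share libraries, depth and experiment, and the values are descriptions. Among 15723 genes tested in all 12 comparisons within a strain, the 3 genes most like Dusp1 over the group means were Junb (0.978), Ier2 (0.945) and Btg2 (0.909). Those most like Dusp6 were Egr4 (0.951), Egr1 (0.949) and Sik1. Dusp4 was most like Spry4 (0.902), Samd4b and Eif4g2, and Dusp5 most like Ank (0.958), Rab7 and Hmga1. Dusp8 was most like Zdhhc8 (0.964), Ctnnd2 and Cep170b, and Dusp14 most like Ppp1r15b (0.942), Rab1a and Bhlhe40.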

How the data were processed

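Poly(A) RNA of one perfused, snap-frozen hemisphere per mouse was sequenced as paired reads. Per the labels and the study's methods, the authors trimmed the reads, aligned them with STAR to GRCm39 and quantified genes with Salmon in the nf-core/rnaseq pipeline. The annotation release and the strand setting are not given in the sources used here. The deposited tables held estimated counts and TPM (scaled by the authors for transcript length and library size) for 56941 genes in 200 mice. All sample columns matched a mouse by name.

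Estimated counts were rounded and tested with edgeR 4.0.16 in R 4.3.3 (TMM normalization, robust quasi-likelihood fit), on genes that reached 10 counts in a number of mice no smaller than the smallest group, corrected for sex and age, and p-values were adjusted over all genes tested (Benjamini-Hochberg, threshold 0.05). The comparisons of times within one surgery were instead corrected for strain and sex, without age. TPM was used for levels only, and log2 CPM with a prior count of 1 for correlations. Replicates are separate mice, and p-values measure the spread between them. No mouse's column was identical to another's, and replicate labels are unique to each mouse. Alternatives were DESeq2 1.42.0, gene-length offsets, RLE factors, other filters, no covariates, experiment in place of age, the largest experiment alone, and leaving out sham mice in turn. The fitting code was tested on simulated data.

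The 6 members, the gene lists and the motifs were chosen with earlier results of these data known. Besides the 6 members, genes of the lists are named only where they were called over all 4 strains at 9 h, and for likeness of pattern the 3 genes with the highest Pearson correlation with each member. Promoter sequences, gene positions and motif shares come from the GRCm39 genome and GENCODE annotation, in which all 6 members matched by identifier. Total estimated counts per mouse had a median of 20258900.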

Additional observations from a re-analysis of the deposited data

Results flagged for a closer look

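The 6 genes were tested for a single distant value by Dixon's ratio in each of the 16 groups of 4 to 10 mice, 96 sets of values that share mice between genes, where chance alone marks about 1 set in 20. A distant value was found in 2. Dusp1 was 27.8 TPM in the highest IL-1R1 nRestore CHI mouse at 9 h, with 18.6 TPM in the next. Dusp4 was 6.37 TPM in the highest IL-1R1 nRestore sham mouse at 9 h, with 3.91 TPM in the next.

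The CHI effect differed between groups, by the edgeR test of the difference itself, for Dusp1 and Dusp6, and for no other member in the 9 comparisons of strains and 8 of times. In IL-1R1 eRestore minus C57BL/6J at 9 h the difference was 1.04 for Dusp1 and 0.78 for Dusp6. In C57BL/6J the effect at 9 h minus that at 24 h was -0.85 for Dusp1 and -0.67 for Dusp6, and minus that at 72 h it was -1.38 for Dusp1 and -0.95 for Dusp6. The C57BL/6J mice at 9 h enter all 3 comparisons.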

How the results depend on the processing

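Of 320 alternative values for the number of members called, 291 stayed within 1.5 times the reported one. Of 1278 alternative log2 fold changes of a member, 47 changed sign, none of them where the reported value was called, 35 lost a call and 14 gained one. The 24 level and 30 correlation alternatives kept their values within the replicate spread or the interval of the correlation. No cause was tested for the changes below.

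The number of members called in C57BL/6J at 9 h was 4, and was 2 with no covariates, 2 to 3 with 1 sham mouse left out, and 2 without the mice high in choroid plexus markers. Dusp1 and Dusp6 were called in each of these. At 9 h 1 member in place of 0 was called in IL-1R1 gKO by DESeq2, by DESeq2 with gene-length offsets and with experiment in place of age (Dusp6), 1 in IL-1R1 eRestore by both DESeq2 fits (Dusp5), and 1 in IL-1R1 nRestore by both (Dusp6). With no filter on low counts 2 were called in IL-1R1 eRestore at 24 h (Dusp4 and Dusp14) and 2 in IL-1R1 nRestore at 9 h (Dusp1 and Dusp6), the latter in a fit whose prior degrees of freedom were infinite. For IL-1R1 eRestore minus C57BL/6J at 9 h the number was 2, and was 1 with no filter, 0 with no covariates, 1 with experiment in place of age, 0 without the mice high in choroid plexus markers, 1 in the largest experiment alone and 1 to 2 with 1 sham mouse left out. It was 1 in place of 2 with no filter and with no covariates for 9 h minus 24 h in C57BL/6J, 2 in place of 4 with no filter over all strains at 9 h, and 1 in place of 2 with experiment in place of age between CHI mice of IL-1R1 eRestore and C57BL/6J.

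Sign changes were confined to uncalled values. In the largest experiment alone, C57BL/6J at 24 h gave 0.25 for Dusp1, 0.030 for Dusp4, 0.22 for Dusp6, 0.0025 for Dusp8 and 0.026 for Dusp14, and at 72 h -0.055 for Dusp5 and -0.022 for Dusp6. IL-1R1 eRestore gave -0.023 for Dusp1 and 0.078 for Dusp6 at 9 h and -0.18 for Dusp1 at 72 h. IL-1R1 gKO gave -0.043 for Dusp8 at 24 h, and 0.067 for Dusp8 and -0.053 for Dusp14 at 72 h. IL-1R1 nRestore gave -0.078 for Dusp4 and -0.065 for Dusp6 at 24 h, and -0.21 for Dusp4, -0.35 for Dusp5 and -0.038 for Dusp14 at 72 h. With experiment in place of age, Dusp8 gave -0.033 in IL-1R1 eRestore at 9 h, -0.025 in IL-1R1 gKO at 24 h and 0.022 for the sex difference, Dusp6 gave 0.037 for the sex difference and -0.00023 over all strains at 72 h, and Dusp14 gave 0.016 for IL-1R1 gKO minus C57BL/6J at 9 h and -0.035 between CHI mice of IL-1R1 eRestore and C57BL/6J. With no covariates, Dusp8 gave -0.0087 in IL-1R1 eRestore at 9 h and 0.00090 over all strains at 24 h, Dusp5 gave -0.020 in IL-1R1 nRestore at 9 h and 0.042 for 9 h minus 72 h in C57BL/6J, and Dusp1 gave -0.073 in IL-1R1 eRestore at 24 h. With no filter Dusp8 gave 0.00022 over all strains at 24 h, and DESeq2 with gene-length offsets gave 0.026 for Dusp6 in IL-1R1 eRestore at 9 h.

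With 1 sham mouse left out at 9 h, Dusp1 ran from -0.28 to 0.095 in IL-1R1 gKO, Dusp1 from -0.054 to 0.21, Dusp6 from -0.082 to 0.039 and Dusp8 from -0.011 to 0.024 in IL-1R1 eRestore, and Dusp4 from -0.49 to 0.10 and Dusp5 from -0.055 to 0.24 in IL-1R1 nRestore. Dusp5 ran from -0.18 to 0.090 in IL-1R1 eRestore at 24 h and from -0.22 to 0.067 for IL-1R1 nRestore minus C57BL/6J at 9 h. At 72 h in IL-1R1 nRestore Dusp4 ran from -0.0080 to 0.16, Dusp6 from -0.13 to 0.0056 and Dusp5 from -0.095 to 0.20. The largest experiment alone with age as a covariate could not be fitted in C57BL/6J at 9 h, nor experiment in place of age for IL-1R1 nRestore minus C57BL/6J at 9 h.

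Over all genes, the number called at 9 h was 33 in IL-1R1 gKO and ran from 0 (largest experiment alone) to 218 (DESeq2). In IL-1R1 eRestore it was 1222, from 137 (largest experiment alone) to 1991 (DESeq2), and in IL-1R1 nRestore 102, up to 806 (no filter), with 399 by DESeq2. For IL-1R1 eRestore minus C57BL/6J at 9 h edgeR called 0.817% of 17620 genes, and the count ran from 7 (no covariates) to 290 (DESeq2). At 24 h it was 67 in C57BL/6J, from 18 (largest experiment alone) to 333 (no filter), and 1 in IL-1R1 gKO, with 84 by DESeq2 with gene-length offsets. Over all strains at 24 h it was 327, with 212 under no filter and 213 with experiment in place of age. Precision is limited by sham groups of 4 to 6 mice. The fits without mice high in choroid plexus markers, those of the largest experiment with sex as covariate and the comparisons of IL-1R1 eRestore with C57BL/6J within a surgery were added after the data were seen. No paired analysis was possible because no mouse shares a replicate label with another.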
